A study of Mus musculus with 24 samples.

Results

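Gpr39, which encodes a zinc-sensing receptor, and 9 genes that bind, sense or move zinc were followed through 24 RNA sequencing libraries of the mouse cell line mpkCCD, which derives from epithelium of the kidney's cortical collecting duct. The 10 genes were chosen by name: the receptor gene Gpr39, the metallothionein genes Mt1 and Mt2, the metal-responsive transcription factor gene Mtf1, the zinc exporter genes Slc30a1, Slc30a4, Slc30a5 and Slc30a7, and the zinc importer genes Slc39a6 and Slc39a10. Each had 1 row among the 12224 rows of the expression table, and all 10 were among the 11557 rows tested. The libraries fell into 4 groups of 6. WT cells, a genotype that the labels spell out as cells without transformation, received vehicle or the agonist cpd1324, and Gpr39 knockout (KO) cells received vehicle or the same agonist. Vehicle was 0.1% DMSO with 10 µM ZnCl2, and the agonist was 1 µM cpd1324 with 10 µM ZnCl2, given for 2 h to the basolateral side. Whether the agonist medium held DMSO as well is not given in the sources used here, and if it did not, its absence cannot be told apart from the agonist in each comparison of agonist with vehicle. Zinc was therefore added in all 4 groups, and no group without added zinc was analysed here. Before treatment all cells had polarized on inserts for 9 days in medium lacking dDAVP, followed by 24 h in a simple medium. How many knockout clones were used, and which part of Gpr39 was edited, is not given in the sources used here.

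GPR39 is a G protein-coupled receptor that is activated by extracellular zinc and signals through several G protein families. Inside cells, free zinc is held low by metallothioneins, small cysteine-rich proteins that bind zinc and copper, and by 2 transporter families that work in opposite directions: SLC30 (ZnT) proteins move zinc out of the cytosol and SLC39 (ZIP) proteins move it in. MTF1 is the sensor that links these parts, because zinc lets it bind metal response elements in the promoters of Mt1, Mt2 and Slc30a1 and activate them. Metallothionein and ZnT1 transcripts are therefore widely used as a readout of zinc in the cytosol.

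The promoters of Mt1, Mt2 and Slc30a1 are shown because these 3 genes are known targets of MTF1. The sequences are the windows of 300 bases from RefSeq on GRCm38.p6, from 250 bases before to 50 after the start that RefSeq lists, read 5′ to 3′ along the gene's strand. Capitals mark matches to TGCACNC or TGCGCNC, the core of the metal response element, on either strand, so that a match on the other strand reads GNGTGCA or GNGCGCA. The Mt1 window was chr8:94178839-94179138, the Mt2 window chr8:94172368-94172667 and the Slc30a1 window chr1:191906531-191906830, all on the plus strand.
Mt1: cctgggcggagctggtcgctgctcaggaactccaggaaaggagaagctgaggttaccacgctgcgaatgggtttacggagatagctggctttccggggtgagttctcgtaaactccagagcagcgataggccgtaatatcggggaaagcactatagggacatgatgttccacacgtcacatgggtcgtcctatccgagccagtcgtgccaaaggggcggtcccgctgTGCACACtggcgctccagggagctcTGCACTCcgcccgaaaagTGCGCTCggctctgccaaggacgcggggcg
Mt2: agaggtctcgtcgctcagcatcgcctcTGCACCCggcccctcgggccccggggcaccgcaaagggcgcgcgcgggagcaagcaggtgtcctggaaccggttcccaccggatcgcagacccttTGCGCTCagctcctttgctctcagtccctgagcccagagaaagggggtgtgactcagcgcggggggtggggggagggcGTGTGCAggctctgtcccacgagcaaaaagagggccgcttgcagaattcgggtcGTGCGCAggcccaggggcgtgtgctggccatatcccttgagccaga
Slc30a1: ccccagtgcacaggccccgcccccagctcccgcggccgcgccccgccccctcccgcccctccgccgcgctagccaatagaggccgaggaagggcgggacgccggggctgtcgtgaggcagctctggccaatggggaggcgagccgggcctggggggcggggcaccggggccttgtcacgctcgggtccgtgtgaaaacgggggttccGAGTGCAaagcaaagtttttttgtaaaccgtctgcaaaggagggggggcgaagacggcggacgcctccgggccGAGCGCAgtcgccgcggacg
Mt1 held 3 matches, Mt2 held 4 and Slc30a1 held 2. Of these, 2 in Mt1, 1 in Mt2 and 1 in Slc30a1 reached past the start that RefSeq lists. Of 32851 RefSeq windows of the same length, 25.7% held at least 1 match, 7.11% at least 2, 1.97% at least 3 and 0.52% at least 4. Among the other members in the promoter table, Slc30a4 held 3 matches and Slc30a5 held 1, while the windows of Gpr39, Mtf1, Slc30a7 and Slc39a10 held 0. With the looser core TGCNCNC, which includes both motifs, Mt2 held 6 matches, Slc30a4 held 5, Mtf1 held 1 and 1 of the 2 windows of Slc39a10 held 1, while the counts of the other members were as before. With that core 51.0% of all windows held at least 1.

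Recovered reads ran from 29.8 to 51.9 M per library, so that counting error was small for every member: the lowest count of any member in any library was 375 reads, for Mtf1. Levels are in scaled units, the deposited per-length values multiplied by 1 constant so that a library's mean total is 1000000. Differences are of log2(scaled units + 0.5), with standard errors from limma, a linear model fitted to all 24 libraries, and p-values adjusted by Benjamini-Hochberg over all rows tested, and values below 0.05 were taken as calls. Shares of all rows called are those of this fit, also where a count of members comes from another setting. The totals of WT libraries with agonist were 1.18 times those of WT libraries with vehicle. Setting every library to the same total moved the median of all genes to -0.24 for the agonist effect in WT cells, to -0.28 for the interaction and to 0.28 for KO against WT cells under agonist, and members whose direction or call turned on this are named with their values. Among collecting duct principal cell markers, 11 of 13 were in the table, and they moved both ways. KO against WT cells with vehicle gave 4 higher and 3 lower, where 47.8% of all rows were called (23.9% in each direction). Examples were Aqp2 (17.7 scaled units in WT and 87.3 in KO libraries) and Scnn1b (8.19 and 1.95). In WT cells the agonist gave 3 higher (Krt18, Cdh1 and Krt19) and 5 lower, where 57.2% of all rows were called (28.6% in each direction). The lower ones included Avpr2 (105 to 54.5), Scnn1g (33.4 to 13.4) and Aqp2 (17.7 to 11.7). The summed level of the 11 markers was 4193 to 4748 in WT and 4269 to 4777 in KO libraries with vehicle, 3943 to 4734 in KO libraries with agonist and 8391 to 11071 in WT libraries with agonist, where Krt18 made up the larger part. Of 25 markers of other cells, 9 had a row with a single unique name, and Umod, Slc12a1, Pecam1 and Ptprc had none. Mean levels in WT and KO libraries with vehicle were 55.6 and 41.0 for Atp6v1b1 and 27.7 and 51.4 for Aqp6 (intercalated cells), 34.3 and 25.8 for Csf1r (macrophages), 8.94 and 5.69 for Lrp2 (proximal tubule) and 0.524 and 6.39 for Slc12a3 (distal tubule), and the part of other cells in the results was not tested. Library 6 of the KO vehicle group stood apart from the other 5 over all genes, with a chi-square per degree of freedom of 91.8 to 110.4 against each of them, where those 5 differed among themselves by 5.19 to 17.0. It had the highest Gpr39, Mt1, Mtf1, Slc30a7 and Slc39a10 of its group and the lowest Slc30a1 and Slc30a5. Values without it are given for the members it moved most. The labels do not say whether replicates were separate cultures, so the p-values measure the spread between these libraries, which may be technical.

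The metallothioneins stood far above every other member. In WT cells with vehicle, Mt1 averaged 7559 ± 1044 scaled units (SD, n = 6) and Mt2 averaged 3040 ± 543, and the order continued with Slc30a4 at 53.9 ± 2.82, Slc30a5 at 51.7 ± 3.76 and Slc30a1 at 39.8 ± 5.44. Slc39a6 followed at 29.5 ± 2.22, Slc30a7 at 26.4 ± 1.26, Gpr39 at 21.6 ± 1.61, Slc39a10 at 9.65 ± 1.19 and Mtf1 at 5.11 ± 0.303. Neighbours whose libraries overlapped in that order were Slc30a4 and Slc30a5, Slc30a5 and Slc30a1, and Slc39a6 and Slc30a7. In WT cells with agonist Slc30a4 was clear of Slc30a5, and Slc39a6, Gpr39, Slc30a1 and Slc30a7 followed in that order, each overlapping the next. In KO cells Gpr39 came next to last, at 9.37 ± 0.645 with vehicle and 9.40 ± 0.882 with agonist, and overlapped Slc39a10. Mt1 averaged higher than all other rows tested in KO cells with vehicle. Together Mt1 and Mt2 made up 1.10 ± 0.143% (SD, n = 6) of the summed scaled units in WT cells with vehicle, 0.488 ± 0.0426% in WT cells with agonist, 1.58 ± 0.267% in KO cells with vehicle and 1.29 ± 0.170% in KO cells with agonist. Mtf1, whose product acts on both, was among the lowest rows, at percentile 13.8 of the tested rows in WT cells with vehicle.

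**Figure D1:**
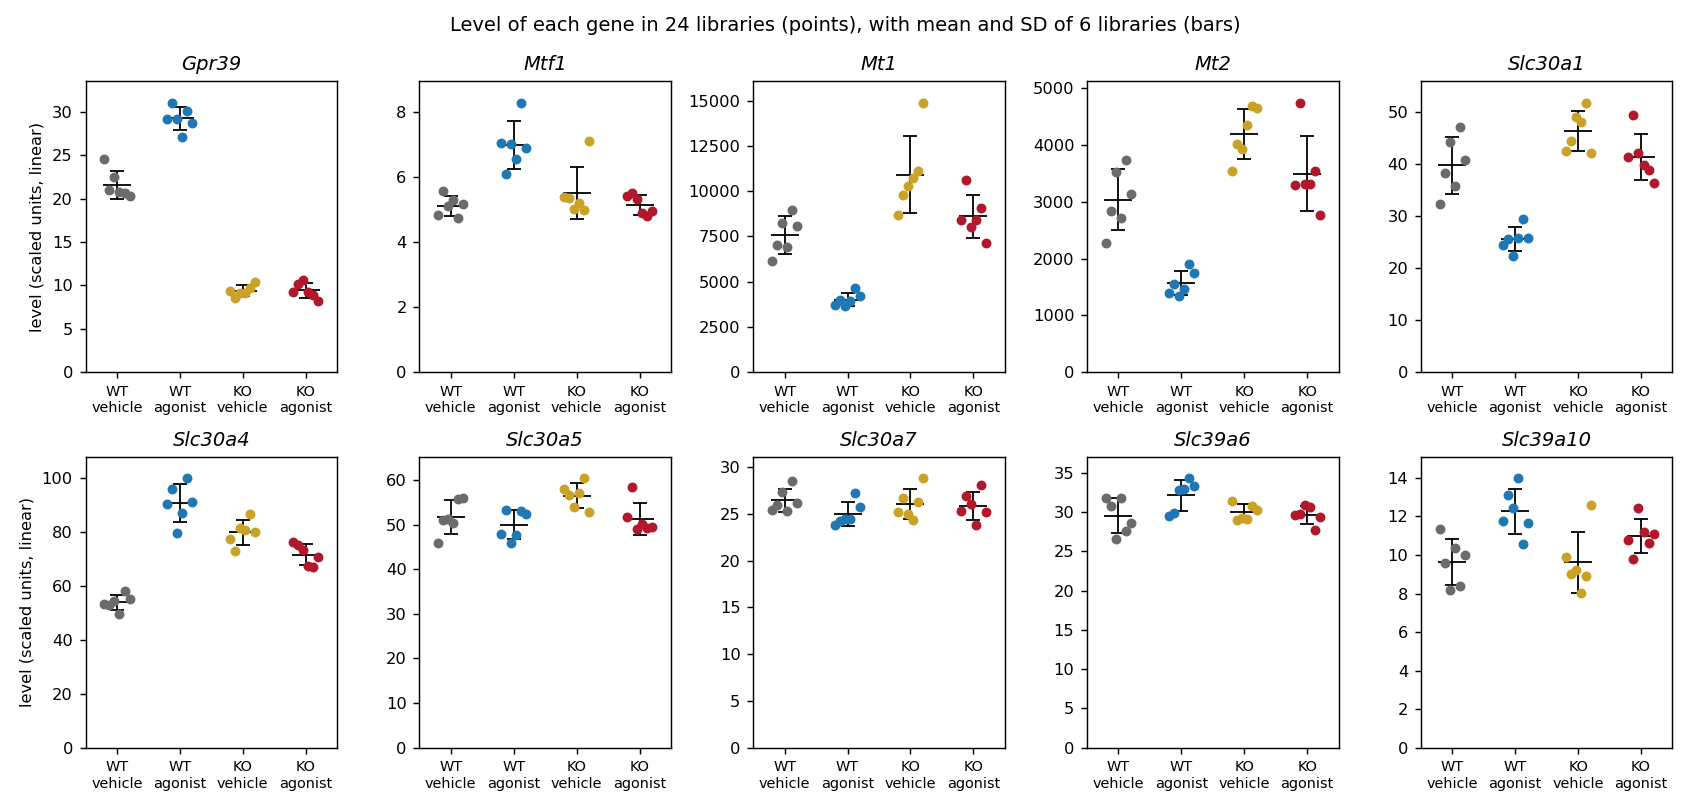
Level of the 10 genes in scaled units (linear axes from 0) in each of 24 libraries, by group; points are libraries and bars the mean with SD of 6 libraries. Gpr39 lay between 8.20 and 10.6 in the KO libraries and between 20.3 and 31.1 in the WT libraries, and Mt1, Mt2 and Slc30a1 were lower in every WT library with agonist than in every library of the other groups.

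Gpr39 itself had lower levels in all 12 KO libraries than in any of the 12 WT libraries but was not lost. In WT cells its lowest, median and highest levels were 20.3, 20.9 and 24.5 scaled units with vehicle and 27.1, 29.2 and 31.1 with agonist. In KO cells they were 8.52, 9.25 and 10.4 with vehicle and 8.20, 9.22 and 10.6 with agonist, from 387 to 704 reads per library. The level in KO cells was 43.4% of that in WT cells with vehicle, a difference of -1.16 ± 0.06 (SE, n = 6 libraries per group; limma adjusted p = 3.37e-14), and 32.2% with agonist, a difference of -1.59 ± 0.06 (adjusted p = 1.10e-17). In WT cells the agonist raised its own receptor's transcript by 0.43 ± 0.06 (adjusted p = 9.63e-07), with no overlap between the groups. That value was 0.19 with the same total in every library (adjusted p = 0.00436). In KO cells the remaining Gpr39 signal differed by 0.00 ± 0.06 between agonist and vehicle (adjusted p = 0.985). The difference between the effects in WT and KO cells was 0.43 ± 0.08 (adjusted p = 0.000191), and 0.16 with the same total in every library (adjusted p = 0.0924), which is no call.

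Reads counted for Gpr39 may include those of another gene. In GENCODE M21 the exons of Gpr39 cover 2691 bases, of which 1202 (44.7%) lie opposite exons of Lypd1 on the other strand, and the gene length in the table was 4745. Whether counting used strand is not given in the sources used here, and Lypd1 had no row with a single unique name. Rows with joined or repeated names were not searched for it. Reads of the pair could therefore not be told apart, and the part of Lypd1 in the KO signal was not tested. Of 10 genes that RefSeq lists within 1 Mb of Gpr39 on GRCm38.p6, 5 code for protein and 2 had rows with a single unique name. Slc35f5, a solute carrier gene, was lower in KO than in WT cells with vehicle by 0.46 on the log2 scale (-0.46 ± 0.08; limma adjusted p = 7.74e-05), and Actr3, which encodes an actin-nucleating protein of the Arp2/3 complex, differed by 0.05 ± 0.06 (adjusted p = 0.512). Actr3 rose with agonist in WT cells by 1.14 ± 0.06 (adjusted p = 4.93e-15).

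The agonist lowered the 3 MTF1 target genes in WT cells. Mt1 ran from 6125 through a median of 7539 to 8966 scaled units with vehicle and from 3654 through 3931 to 4640 with agonist. Mt2 ran from 2275 through 2990 to 3746 with vehicle and from 1349 through 1509 to 1904 with agonist. Slc30a1, which encodes the plasma membrane zinc exporter ZnT1, ran from 32.4 through 39.5 to 47.2 with vehicle and from 22.3 through 25.6 to 29.4 with agonist. In each of the 3 genes the highest library with agonist lay below the lowest with vehicle. The differences were -0.91 ± 0.11 for Mt1 (SE, n = 6 libraries per group; limma adjusted p = 1.07e-07), -0.95 ± 0.12 for Mt2 (adjusted p = 2.13e-07) and -0.62 ± 0.08 for Slc30a1 (adjusted p = 4.75e-07), so that the mean levels with agonist were 53.0%, 51.6% and 64.2% of those with vehicle. All 3 fell under each of the other scalings as well, to between -0.91 and -1.31 for Mt1. In the same fit 57.2% of all rows were called, 28.6% higher and 28.6% lower, and the libraries of 37.5% did not overlap. Mt1 and Mt2 were at percentiles 1.38 and 1.16 of all rows tested, counted from the most lowered gene, and Slc30a1 at percentile 4.69. Bulk libraries cannot tell less RNA per cell from fewer cells that make it.

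The other exporter genes did not follow Slc30a1. Slc30a4, which encodes ZnT4, a transporter of endosomes and lysosomes, moved the opposite way: its lowest, median and highest levels were 49.5, 53.7 and 58.0 scaled units with vehicle and 79.7, 90.6 and 99.9 with agonist. The groups were far from overlapping, and the difference was 0.74 ± 0.05 (limma adjusted p = 4.33e-12), or 0.50 with the same total in every library (adjusted p = 2.18e-10). Slc30a5 and Slc30a7, which encode the secretory pathway transporters ZnT5 and ZnT7, overlapped between the groups. Slc30a5 ran from 45.8 to 55.9 with vehicle and from 45.8 to 53.3 with agonist (-0.05 ± 0.05, adjusted p = 0.473). Slc30a7 ran from 25.3 to 28.6 with vehicle and from 23.8 to 27.2 with agonist (-0.08 ± 0.05, adjusted p = 0.148). With the same total in every library both were called lower, by -0.29 for Slc30a5 (adjusted p = 5.88e-06) and by -0.32 for Slc30a7 (adjusted p = 2.49e-06), close to the shift of the median of all genes.

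Mtf1 and the importer genes were higher with agonist by smaller amounts that depended on scaling. Mtf1 had a lowest, median and highest level of 4.72, 5.14 and 5.56 scaled units with vehicle and 6.09, 6.95 and 8.28 with agonist in WT cells, with no overlap. The difference was 0.41 ± 0.08 (limma adjusted p = 6.43e-05), or 0.19 with the same total in every library (adjusted p = 0.0369). Slc39a10 encodes ZIP10, a plasma membrane importer that MTF1 is known to repress. It ran from 8.20 to 11.3 with vehicle and from 10.6 to 14.0 with agonist, and the difference of 0.33 ± 0.09 (adjusted p = 0.00266) became 0.10 with the same total in every library (adjusted p = 0.362). Slc39a6, which encodes the related importer ZIP6, ran from 26.6 to 31.8 with vehicle and from 29.4 to 34.3 with agonist. Its difference was 0.12 ± 0.05 (adjusted p = 0.0348) and changed sign to -0.12 with the same total in every library (adjusted p = 0.0682). The Slc39a6 call was also lost without any of WT vehicle libraries 3, 5 or 6 or WT agonist libraries 3, 4, 5 or 6, with adjusted p from 0.0612 to 0.109. In all, 8 of the 10 members were called in WT cells, 5 higher and 3 lower, against 57.2% of all rows tested (28.6% in each direction). The libraries of 6 did not overlap, against 37.5% of all rows. With the same total in every library 8 were called, 3 higher and 5 lower. The median of the members' absolute differences was 0.42, against 0.20 over all rows tested. Because the genes were chosen with earlier results of these data known, these medians are a description and no test.

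**Figure D2:**
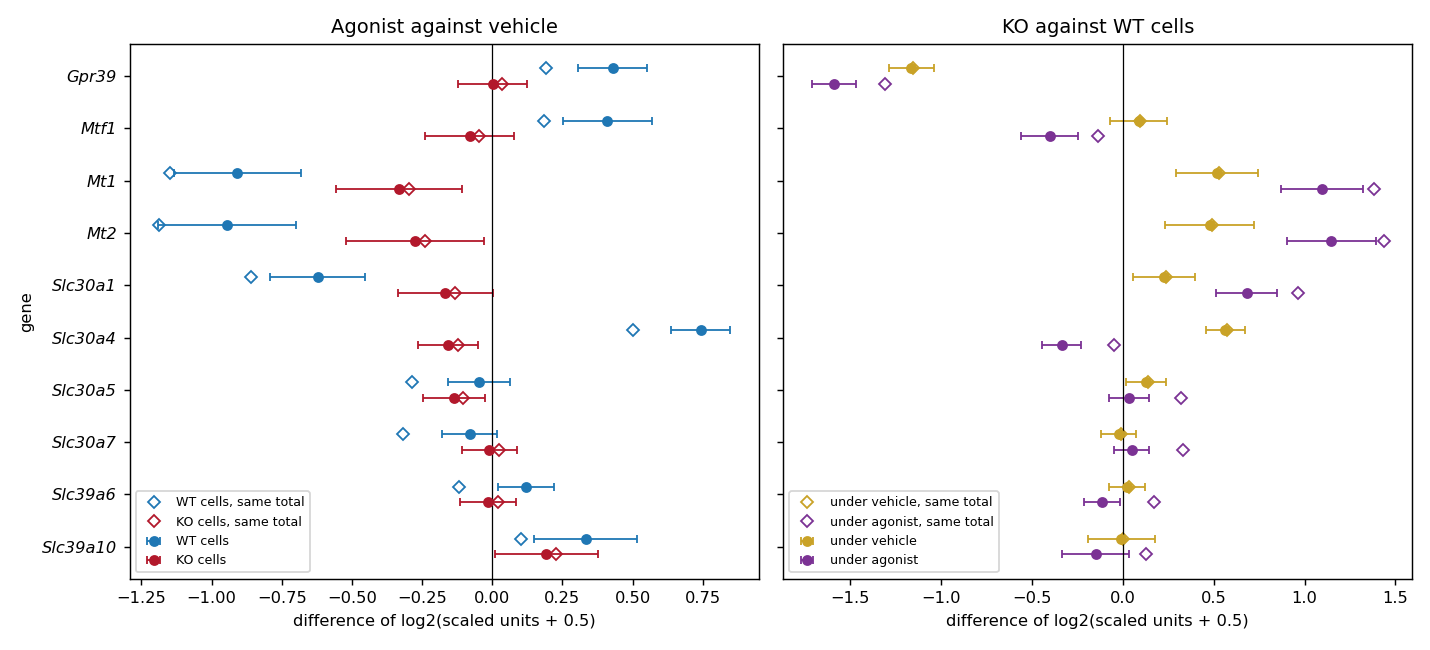
Differences of log2(scaled units + 0.5) for the 10 genes, with 95% confidence intervals from limma (filled points and bars) and with the same total in every library (open diamonds). The left panel shows agonist against vehicle in WT and KO cells and the right panel KO against WT cells under each treatment; Slc30a4 was 0.74 higher with agonist in WT cells and stood at -0.16 in KO cells.

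In KO cells 0 of the 10 members were called for the agonist, where 9.3% of all rows tested were called in either direction, 4.66% higher and 4.64% lower, and the libraries of all 10 overlapped between the groups, against 4.53% of all rows without overlap. At an unadjusted p below 0.05 the count was 5, for which the share of all rows is not given here. With voom on the recovered reads, also in limma, 1 was called, Mt1 (-0.34, adjusted p = 0.0472). Mt1 ran from 8661 through a median of 10495 to 14894 scaled units with vehicle and from 7105 through 8406 to 10608 with agonist. The groups overlapped, and the difference was -0.33 ± 0.11 (limma adjusted p = 0.0538). Mt2 ran from 3553 through 4186 to 4684 with vehicle and from 2772 through 3319 to 4751 with agonist, a difference of -0.28 ± 0.12 (adjusted p = 0.130). Slc30a1 ran from 42.0 through 46.3 to 51.8 with vehicle and from 36.3 through 40.6 to 49.4 with agonist, a difference of -0.17 ± 0.08 (adjusted p = 0.186). The estimates for these 3 genes had the sign seen in WT cells, and the 95% intervals of Mt1 (-0.56 to -0.11) and Mt2 (-0.52 to -0.03) did not reach 0. With quantile scaling Mt1 was at -0.0988 (adjusted p = 0.415) and Mt2 at -0.17 (adjusted p = 0.248). Slc30a4 ran from 73.1 through 80.4 to 86.7 with vehicle and from 66.9 through 71.9 to 76.1 with agonist, a difference of -0.16 ± 0.05 (adjusted p = 0.0531). Slc30a5 stood at -0.14 ± 0.05 (adjusted p = 0.0965), Slc39a10 at 0.19 ± 0.09 (adjusted p = 0.158), and Mtf1, Slc30a7 and Slc39a6 between -0.08 and -0.01. The 95% intervals of Slc30a4 (-0.26 to -0.05), Slc30a5 (-0.25 to -0.03) and Slc39a10 (0.01 to 0.38) did not reach 0 either. The sign of Slc30a4 was opposite to that in WT cells. The counts for the agonist in KO cells rested on single libraries, and the share of all rows called without a library is not given here. Without KO agonist library 2, which had the highest Mt1, Mt2, Slc30a1 and Slc30a5 of its group, 4 members were called lower: Mt1 (-0.39, adjusted p = 0.0192), Mt2 (-0.37, adjusted p = 0.0280), Slc30a4 (-0.17, adjusted p = 0.0349) and Slc30a5 (-0.18, adjusted p = 0.0250). Without KO vehicle library 6, Mt1 was -0.24 (adjusted p = 0.0887), and Slc30a4 (-0.16, adjusted p = 0.04999) and Slc39a10 (0.27, adjusted p = 0.0284) were called, while Mtf1 was at -0.00966 (adjusted p = 0.933). Without KO vehicle library 1, Mt1 was called (-0.39, adjusted p = 0.0354), and without KO vehicle library 2, Slc30a4 was (-0.18, adjusted p = 0.0371).

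The size of the agonist effect differed between the genotypes in 6 of the 10 members, against 41.1% of all rows tested (21.5% higher, 19.6% lower). As the effect in WT cells minus that in KO cells, the interaction was -0.58 ± 0.15 for Mt1 (limma adjusted p = 0.00395), -0.67 ± 0.17 for Mt2 (adjusted p = 0.00222) and -0.46 ± 0.12 for Slc30a1 (adjusted p = 0.00260). It was 0.90 ± 0.07 for Slc30a4 (adjusted p = 1.90e-10), 0.49 ± 0.11 for Mtf1 (adjusted p = 0.000690) and, as given above, 0.43 for Gpr39. The Mt1, Mt2, Slc30a1 and Slc30a4 calls held under each scaling and without any single library, with Mt1 between -0.51 and -0.67 when 1 library was left out. The value moved to -1.22 for Mt1 and -1.16 for Mt2 with quantile scaling and to -0.73 for Slc30a1 with the same total in every library. Mtf1 was 0.42 without KO vehicle library 6 (adjusted p = 0.000402) and 0.23 with the same total in every library, which is no call (adjusted p = 0.0674). With that scaling 1 member was called higher and 5 lower, in place of 3 and 3, because Slc30a5 (-0.18, adjusted p = 0.0170, from 0.09 ± 0.08) and Slc30a7 (-0.34, adjusted p = 0.000136, from -0.07 ± 0.07) were called instead of Gpr39 and Mtf1. For Slc39a6 and Slc39a10 the interactions of 0.14 ± 0.07 and 0.14 ± 0.13 were not called (adjusted p = 0.114 and 0.404).

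KO cells already differed from WT cells without the agonist. With vehicle, 5 members were called, 4 higher and 1 lower, against 47.8% of all rows tested (23.9% in each direction), and the libraries of 2, Gpr39 and Slc30a4, did not overlap, against 27.3% of all rows. Slc30a4 was higher in KO cells by 0.56 ± 0.05 (limma adjusted p = 1.95e-09), which put the KO vehicle libraries (73.1 to 86.7 scaled units) between the WT vehicle libraries (49.5 to 58.0) and most WT agonist libraries (79.7 to 99.9). Mt1 was higher by 0.52 ± 0.11 (adjusted p = 0.000363) and Mt2 by 0.48 ± 0.12 (adjusted p = 0.00178), with overlapping libraries. Without KO vehicle library 6 these were 0.43 (adjusted p = 0.000637) and 0.45 (adjusted p = 0.00441). Slc30a1 was higher by 0.23 ± 0.08 (adjusted p = 0.0261), and that call was lost without WT vehicle library 1 or 4 or KO vehicle library 3 or 5, with adjusted p from 0.0546 to 0.0838. Slc30a5 stood at 0.13 ± 0.05 (adjusted p = 0.0512). It was called with the same total in every library (0.14, adjusted p = 0.0161) and without WT vehicle library 5 or 6 or KO vehicle library 3 or 6, with adjusted p from 0.0250 to 0.0452. Mtf1 (0.09 ± 0.08), Slc30a7 (-0.02 ± 0.05), Slc39a6 (0.02 ± 0.05) and Slc39a10 (-0.01 ± 0.09) were not called, with adjusted p from 0.367 to 0.941. Without KO vehicle library 6, Mtf1 was at 0.0164 (adjusted p = 0.848) and Slc39a10 at -0.0858 (adjusted p = 0.375).

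The medians of some whole chromosomes were shifted in the KO cells, among them chromosomes 8 and 13, which carry 3 members. Mt1 and Mt2 lie on chromosome 8, where the median of 631 tested genes was 0.17 higher in KO than in WT cells with vehicle, with 55.3% called higher and 6.66% lower, while the median of all genes was 0.00. Relative to that median, Mt1 was 0.35 higher and Mt2 was 0.30 higher, at percentiles 89.5 and 86.5 of their chromosome. Slc30a5 lies on chromosome 13, where the median of 414 genes was -0.18 and 48.8% were called lower. Slc30a5 was 0.31 above that median. Slc30a4 was on chromosome 2, with a median of 0.06, 32.3% called higher and 15.9% called lower. Gpr39, Slc30a1 and Slc39a10 were on chromosome 1, with a median of -0.01. The part of the chromosome shifts in the levels of the members was not tested. For the agonist effect in WT cells the chromosome 8 median was -0.02, and Mt1 and Mt2 were at percentiles 2.06 and 1.58 of that chromosome.

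**Figure D3:**
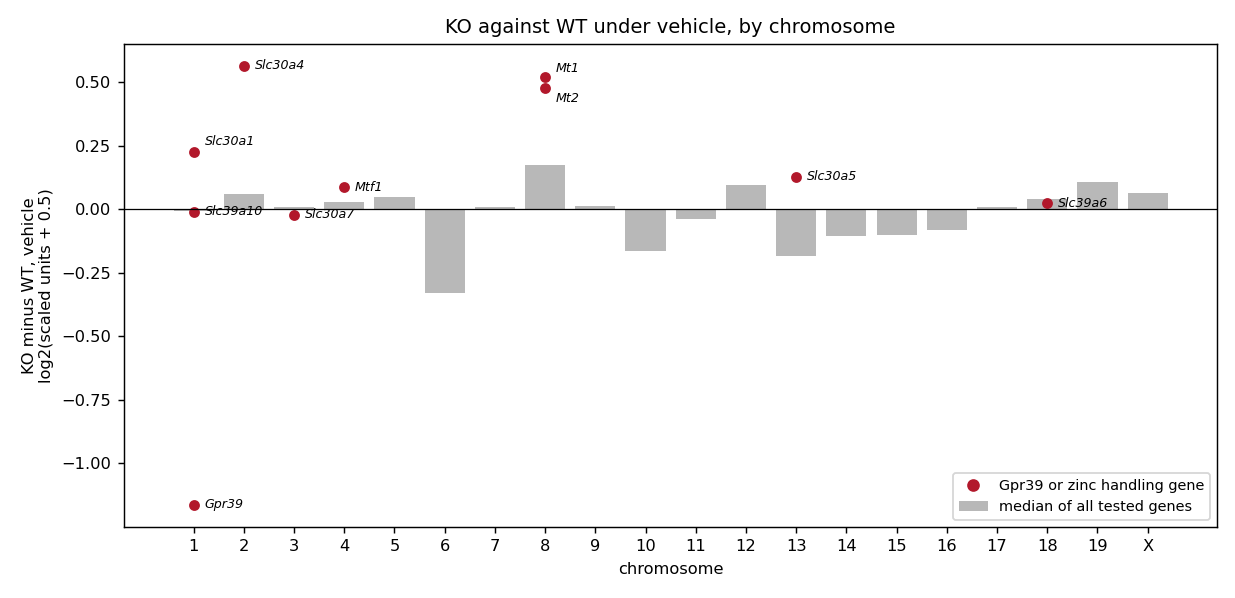
Difference between KO and WT cells with vehicle, in log2(scaled units + 0.5), as the median of all tested genes on each chromosome (bars) and for the 10 genes (points). Mt1 and Mt2 lay above a chromosome 8 median of 0.17, and Slc30a5 lay above a chromosome 13 median of -0.18.

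With agonist the genotypes were further apart than with vehicle in Mt1, Mt2 and Slc30a1, but not in Slc30a4 (0.56 with vehicle and -0.34 with agonist). Of the members, 7 were called, 3 higher and 4 lower in KO cells, against 64.1% of all rows tested (32% higher and 32.1% lower), and the libraries of 6 did not overlap, against 46.3% of all rows. Mt1 was higher by 1.10 ± 0.11 (limma adjusted p = 2.90e-09), Mt2 by 1.15 ± 0.12 (adjusted p = 5.46e-09) and Slc30a1 by 0.68 ± 0.08 (adjusted p = 7.70e-08), with mean levels at 215%, 223% and 162% of those in WT cells. Mtf1 was lower by 0.40 on the log2 scale (-0.40 ± 0.08, adjusted p = 6.10e-05) and Slc30a4 stood at -0.34 ± 0.05 (adjusted p = 3.16e-06), but with the same total in every library these were -0.14 (adjusted p = 0.114) and -0.05 (adjusted p = 0.300). Slc39a6 was called at -0.11 ± 0.05 (adjusted p = 0.0436), and was called the other way, 0.17, with the same total in every library (adjusted p = 0.00880). Its call was also lost without WT agonist library 3, 4, 5 or 6 or KO agonist library 1, 2, 5 or 6, with adjusted p from 0.0595 to 0.109. With the same total, 6 members were called higher and 1 lower, Slc30a5 (0.32, adjusted p = 8.02e-07) and Slc30a7 (0.33, adjusted p = 1.02e-06) among the former, from 0.04 ± 0.05 and 0.05 ± 0.05. This comparison shares its libraries with the others, so its values are not independent of them.

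Within groups the MTF1 target genes varied together, and so did several of the exporter genes. Around their group means, Pearson's r over the 24 libraries was 0.88 for Mt1 and Mt2, 0.85 for Mt2 and Slc30a1 and 0.61 for Mt1 and Slc30a1, as a description of libraries that share preparation and scaling. Values between 0.61 and 0.85 were found with exporter genes outside these 3: 0.75 for Slc30a1 and Slc30a5, 0.70 for Slc30a1 and Slc30a4, 0.72 for Mt1 and Slc30a7 and 0.72 for Mt2 and Slc30a5. For Mtf1, r was 0.48 with Mt1, 0.27 with Mt2 and -0.01 with Slc30a1, and for Slc39a10 it was -0.15, -0.50 and -0.66 with the same genes. The ratio of Mt1 to Mt2 was 2.50 ± 0.128 (SD, n = 6) in WT cells with vehicle, 2.57 ± 0.136 in WT cells with agonist, 2.59 ± 0.311 in KO cells with vehicle and 2.48 ± 0.133 in KO cells with agonist, so the 2 genes kept nearly 1 proportion while their sum moved from 10600 ± 1581 and 5578 ± 575 scaled units in WT cells (vehicle and agonist) to 15104 ± 2494 and 12103 ± 1829 in KO cells. KO vehicle library 6 stood apart, with a ratio of 3.20, the highest sum (19549) and a Slc30a1 level of 42.0, the lowest of its group.

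**Figure D4:**
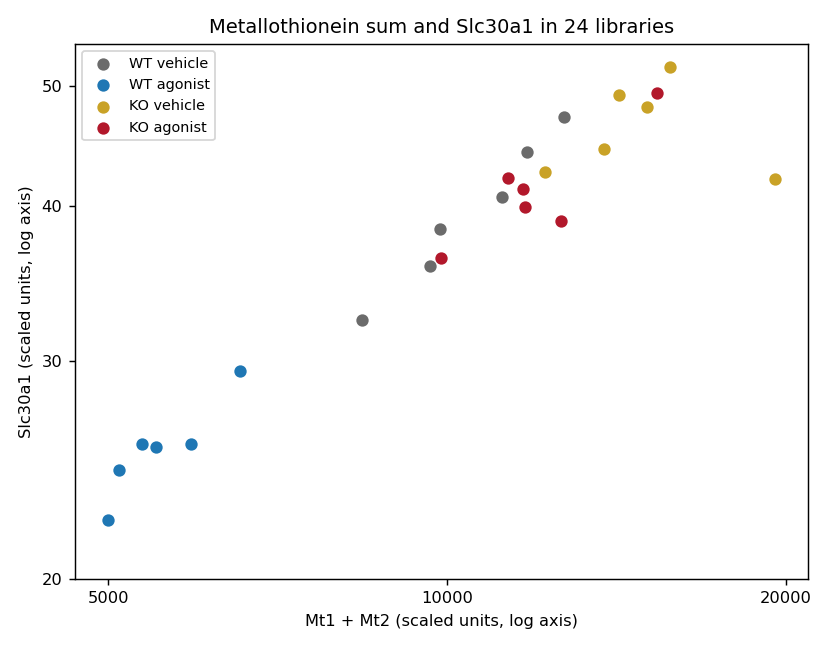
Sum of Mt1 and Mt2 (scaled units, log axis) against Slc30a1 (scaled units, log axis) in 24 libraries, coloured by group. The 6 WT libraries with agonist, with sums of 5003 to 6544, lay below all others on both axes, while elsewhere the order on the axes differed in several libraries, such as a KO vehicle library with a sum of 19549 and 42.0 of Slc30a1.

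The tested genes whose levels were most like a member's over the 24 libraries, by Pearson's r on the log2 scale, differed in whether the likeness held within groups. For Gpr39 they were Ninj1 (r = 0.99), Lonrf3, Slc16a10, Bicd2 and Ank, all at 0.98 or more, but within groups their r was only 0.05 to 0.32, so the likeness was in the 4 group means. For Mt1 they were Zfp617 (r = 0.98), Ankmy2, Ing2, Pnrc2 and Ackr3, at 0.96 or more, with within-group values of 0.73 to 0.84. For Slc30a4 they were Slc7a5 (r = 0.97), which encodes an amino acid transporter, Kif5b, Rars, Xpot and Cldn12, down to 0.95 for Cldn12, with within-group values of 0.53 to 0.68. These values carry no test, since the genes were the highest among 11557 rows. Members, predicted or clone-named genes and rows without a single unique name were passed over.

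Of 21 further zinc transporter and metallothionein genes, 9 had a row with a single unique name and were tested. In WT cells with agonist 1 was higher and 4 were lower, where 57.2% of all rows were called (28.6% in each direction), with a list median of -0.12 against -0.01 over all rows. With the same total in every library 0 were higher and 7 lower, as Slc39a4 (-0.30, limma adjusted p = 0.0360), Slc39a8 (-0.47, adjusted p = 0.01198) and Slc39a11 (-0.35, adjusted p = 0.00115) were then called lower. Slc39a3, which encodes the importer ZIP3, went from 50.1 ± 3.16 to 36.4 ± 1.38 scaled units (SD, n = 6), a difference of -0.45 ± 0.09 (limma adjusted p = 0.000103). Slc39a9, which encodes ZIP9, went from 11.6 ± 0.766 to 8.72 ± 0.998 (-0.40 ± 0.07, adjusted p = 2.15e-05), and both were lower under every scaling. Slc39a14 (-0.12 ± 0.05, adjusted p = 0.0477) and Slc30a6 (-0.15 ± 0.05, adjusted p = 0.00854) were the other genes called lower. Slc30a9, which encodes a mitochondrial zinc transporter, rose from 55.2 ± 1.41 to 67.4 ± 2.99 (0.29 ± 0.04, adjusted p = 1.62e-07), but stood at 0.05 with the same total in every library (adjusted p = 0.175). In KO cells 0 of the 9 were called for the agonist by limma (2 at an unadjusted p below 0.05, and 0 by voom), where 9.3% of all rows were. At the interaction, where 41.1% of all rows were called (21.5% higher, 19.6% lower), Slc39a3 (-0.50 ± 0.12, adjusted p = 0.00211) and Slc39a9 (-0.41 ± 0.10, adjusted p = 0.00129) were called lower and Slc30a9 higher (0.29 ± 0.05, adjusted p = 3.60e-05). The Slc30a9 value was 0.02 with the same total in every library (adjusted p = 0.735), where 0 of the list were called higher and 6 lower. KO against WT cells with vehicle, where 47.8% of all rows were called (23.9% in each direction), gave 1 higher (Slc39a14, 0.19 ± 0.05, adjusted p = 0.00474) and 2 lower: Slc39a3 (-0.25 ± 0.09, adjusted p = 0.02004) and Slc39a8, which encodes ZIP8, at 2.46 ± 0.479 in WT and 0.952 ± 0.331 in KO libraries (-1.04 ± 0.16, adjusted p = 9.31e-06). KO against WT cells with agonist gave 4 higher and 2 lower, where 64.1% of all rows were called (32% higher, 32.1% lower).

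Of 5 other genes that have been linked to MTF1, 4 had a row with a single unique name. In WT cells 3 were higher and 1 was lower with agonist, where 57.2% of all rows were called. With the same total in every library, and with quantile scaling, 2 were called higher and 1 lower. Csrp1, which encodes a LIM domain protein, went from 503 ± 47.1 to 1003 ± 100.03 scaled units (0.99 ± 0.08, limma adjusted p = 4.11e-11), and Ndrg1 went from 465 ± 45.4 to 711 ± 91.0 (0.61 ± 0.09, adjusted p = 4.56e-06), a difference of 0.23 with quantile scaling (adjusted p = 0.0156). Gclc, which encodes the catalytic subunit of the first enzyme of glutathione synthesis, was higher by 0.25 ± 0.09 (adjusted p = 0.0233), a value that was 0.01 with the same total in every library (adjusted p = 0.944) and -0.08 with quantile scaling (adjusted p = 0.498). Selenow was lower at -0.14 ± 0.05 (adjusted p = 0.0272), and at -0.38 with the same total in every library (adjusted p = 1.42e-08) and -0.49 with quantile scaling (adjusted p = 7.74e-12). In KO cells 1 of the 4 was called, where 9.3% of all rows were. This was Gclc, which was lower by 0.36 on the log2 scale (-0.36 ± 0.09, adjusted p = 0.0207) with no overlap between the groups. The interaction was called for Csrp1 (1.13 ± 0.11, adjusted p = 5.05e-09), Ndrg1 (0.83 ± 0.13, adjusted p = 1.36e-05) and Gclc (0.61 ± 0.13, adjusted p = 0.000428), where 41.1% of all rows were called. With quantile scaling the Gclc value was 0.25 (adjusted p = 0.127). The Selenow interaction of -0.07 (adjusted p = 0.519) was called at -0.34 with the same total in every library (adjusted p = 2.60e-05) and at -0.49 with quantile scaling (adjusted p = 9.73e-09). None of the 4 was called between KO and WT cells with vehicle in the limma fit, where 0 had an unadjusted p below 0.05 and voom called 0, but Selenow (-0.09, adjusted p = 0.0348) was called with quantile scaling. Of all rows, 47.8% were called in this comparison by the limma fit.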

How the data were processed

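Poly(A)-selected RNA of 24 mpkCCD libraries was sequenced, and the authors deposited 1 table with a signal per gene and library and a gene length in another column. Per the submitters' processing notes, STAR 2.7.8a, DESeq, DESeq2 and the assembly GRCm39 were used, with no roles given. Multiplied by gene length, the deposited signal values were reads divided by a library factor between 0.754 and 1.46: all values of up to 5000 reads came out whole in every library within 0.05 normalized units, where chance gives at most 14.6%. The signal is therefore normalized between libraries and per length. A single constant brought the mean library total to 1000000. Count tests were planned as alternatives and were not run, because the deposited unit is a per-length signal.

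Groups and replicate numbers came from the sample titles. The 11557 of 12224 rows that averaged at least 1 scaled unit entered 1 fit of all libraries in limma 3.58.1 (R 4.3.3) with a term per group, on log2(scaled units + 0.5), with trend and robust moderation, 20 residual degrees of freedom, two-sided tests and Benjamini-Hochberg adjustment; the pseudocount understates changes of low genes. The script was tested on simulated data. No 2 libraries of a group agreed within sampling noise (lowest chi-square per degree of freedom 4.37 over 60 pairs). The genes, the lists and the tests were chosen with earlier results of these data known. All 10 members are named, with the called genes of each further list (up to 6 by adjusted p) and the 5 genes most like Gpr39, Mt1 and Slc30a4 by Pearson's r. Neighbours, overlaps and promoters came from GENCODE M21 and RefSeq on GRCm38.p6, an earlier build than that of the table, and served for names, neighbours and sequence only. The promoter table held 9 of the 10 members. Reads near overlapping genes on the other strand may be shared: Gm45774 lies opposite 73.5% of the exon bases of Mt2, and Slc30a1, Mtf1 and Slc30a7 have shorter overlaps.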

Additional observations from a re-analysis of the deposited data

Results flagged for a closer look

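The agonist effect differed between WT and KO cells, by the interaction term in limma, in 6 of the 10 genes, against 41.1% of all rows tested. The differences (effect in WT cells minus effect in KO cells, log2 scale) were 0.43 for Gpr39, -0.58 for Mt1, -0.67 for Mt2, 0.49 for Mtf1, -0.46 for Slc30a1 and 0.90 for Slc30a4. Those of Gpr39 and Mtf1 were not called with the same total in every library.

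Of 48 groups of 6 values examined (each gene, the metallothionein sum and the Mt1 to Mt2 ratio), 3 held a library whose gap to the nearest other, as a share of the group's range, was above Dixon's critical value for 6 values. Chance gives about 1 in 20. Mtf1 was 7.10 scaled units in KO vehicle library 6, where the next highest was 5.37. The Mt1 to Mt2 ratio of the same library was 3.20, where the next highest was 2.62. Slc30a5 was 58.4 in KO agonist library 2, where the next highest was 51.7.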

How the results depend on the processing

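The count of members called for the agonist in KO cells was 0 and became 1 with a mean of at least 5 scaled units, with quantile scaling, with the replicate block and with voom on recovered whole reads (a setting added after seeing the data), and 0 to 4 when 1 library was left out. The counts for the other 4 comparisons stayed within 1.5 times under every setting run, with 7 or 8 called for the agonist in WT cells outside leave-one-out. Setting every library to the same total turned the sign of Slc39a6 in WT cells (-0.12), Slc30a7 (0.0250) and Slc39a6 (0.0195) in KO cells, the interactions of Slc30a5 (-0.18), Slc39a6 (-0.14), Slc39a10 (-0.13) and Slc39a8 (-0.14), Slc39a10 between genotypes with vehicle (0.0014) and Slc39a6 (0.17) and Slc39a10 (0.13) between genotypes with agonist. It also turned, in WT cells, Slc39a13 (-0.13), Gna12 (-0.12), Gna13 (-0.17) and Gnas (-0.00685), and in KO cells Slc30a9 (0.0291), and it gave a metallothionein sum of 4882 in WT cells with agonist. Quantile scaling turned Gpr39 in KO cells (-0.0011), Gclc (-0.0755), Gna12 (-0.0236) and Gnas (-0.13) in WT cells and Selenow in KO cells (0.0017). Leaving out 1 library gave, in KO cells, -0.0328 to 0.0383 for Gpr39, -0.033 to 0.019 for Slc30a7 and -0.027 to 0.00386 for Slc39a6; with vehicle between genotypes, -0.0858 to 0.037 for Slc39a10, -0.0052 to 0.0457 for Slc39a6 and -0.0509 to 6.12e-05 for Slc30a7; and with agonist between genotypes, -0.000741 to 0.0554 for Slc30a5. Of 1616 values compared over all settings, 37 changed sign, 29 of them called in neither setting. The cause was not tested. The edgeR and DESeq2 alternatives were not run.

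Same-numbered libraries did not deviate together: their correlations ran from -0.31 to 0.49 over 36 pairs, and 10 pairs were over 0.1. The replicate block, which uses only a shared number, called 7, 1, 6, 6 and 6 members for the agonist in WT cells, the agonist in KO cells, the interaction, KO against WT cells with vehicle and KO against WT cells with agonist. In 8 of the 36 pairs the same number gave the highest correlation. Depth limits little here, since each member had at least 375 reads in every library.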

Other observations

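Metallothionein genes are also known to respond to glucocorticoids, and 6 glucocorticoid response genes, a list chosen with earlier results known, were all in the table. In WT cells with agonist 4 were lower and 2 were higher, where 57.2% of all rows were called (28.6% in each direction), with a list median of -0.27 against -0.01 over all rows. Sgk1, which encodes a kinase that acts on sodium channels, went from 267 to 110 scaled units (-1.26 ± 0.11, limma adjusted p = 6.61e-10). Tsc22d3 stood at -1.10 ± 0.10 (adjusted p = 8.97e-10), Fkbp5 at -0.25 ± 0.05 (adjusted p = 4.73e-05) and Zbtb16 at -0.30 ± 0.12 (adjusted p = 0.0355), the last not called with quantile scaling (-0.23, adjusted p = 0.110). Klf9 (1.02 ± 0.07, adjusted p = 9.30e-12) and Per1 (0.49 ± 0.07, adjusted p = 1.61e-06) were higher. In KO cells 0 of the 6 were called for the agonist by limma (3 at an unadjusted p below 0.05, and 0 by voom), where 9.3% of all rows were. KO against WT cells with vehicle gave 2 lower, Sgk1 (-1.24 ± 0.11) and Fkbp5 (-0.30 ± 0.05), where 47.8% of all rows were called (23.9% in each direction). The part of these genes in the levels of Mt1 and Mt2 was not tested.

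Of 5 genes for G protein alpha subunits, in WT cells with agonist 2 were higher, Gnaq (0.32 ± 0.06) and Gnas (0.23 ± 0.05), and 1 was lower, Gna11 (-0.24 ± 0.04), where 57.2% of all rows were called. With the same total in every library 0 were higher and 3 lower: Gna11 (-0.48, limma adjusted p = 6.59e-10), Gna12 (-0.12, adjusted p = 0.0289) and Gna13 (-0.17, adjusted p = 0.0270), while Gnaq was at 0.08 (adjusted p = 0.282) and Gnas at -0.00685. In KO cells 0 of the 5 were called by limma, where 9.3% of all rows were, and 0 had an unadjusted p below 0.05. Of 5 receptors related to GPR39 that were listed, 0 had a row with a single unique name.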
